A study of Homo sapiens with 5 samples.

Results

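The genes examined here encode the proteins that share a dimerization network with MYC: MAX, its obligate partner; MXD1, MXD3, MXD4 and MXI1, the MXD family of MAX partners; MNT and MGA, further MAX partners; and MLX with its partners MLXIP (MondoA) and MLXIPL (ChREBP). They were chosen by name, 10 of 20037 protein-coding genes in the annotation, and each was taken with every peak that shared at least 1 base with the gene body or with 1 kb beyond either gene end. The peaks came from chromatin immunoprecipitation followed by sequencing (ChIP-seq) in MIA PaCa-2 cells, a widely used line from a human pancreatic carcinoma. The 5 groups held 1 library each: the Mediator subunits MED17 and MED30 in parental cells under normal culture; MYC in cells with a doxycycline-inducible hairpin against MED30 (shMED30) after 3 days of doxycycline; MYC in the same line without doxycycline; and MYC in parental cells under normal culture. Mediator chromatin was fixed with disuccinimidyl glutarate before formaldehyde and MYC chromatin with formaldehyde alone, so fixation differs wherever Mediator and MYC are set side by side. Whether the shMED30 line is 1 clone, and whether a line with another hairpin received doxycycline, is not given in the sources used here. With 1 library per group there is no replicate check of any difference and no p-value.

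MYC binds DNA as a heterodimer with MAX, most tightly at the E-box CACGTG. The MXD proteins, MNT and MGA also pair with MAX and bind E-boxes, where the MXD proteins and MNT recruit SIN3 and histone deacetylases, and so they are known as antagonists of MYC. MLX pairs with MondoA and ChREBP, which respond to glucose-derived metabolites, and also with MXD1, MXD4 and MNT. Mediator connects DNA-bound transcription factors with RNA polymerase II.

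The lists give no read totals, so depth was taken from the background pileup of fragments recovered from each list. It was 1.6 for MED17, 1.65 for MED30, 0.186 for MYC with doxycycline, 0.310 for MYC without doxycycline and 2.56 for parental MYC. The doxycycline library thus had 0.599 times the depth of the no-doxycycline library, which had 0.121 times that of the parental one. As a check of the cell label, the epithelial keratin genes KRT8 and KRT18 and the mesenchymal gene VIM each had peaks of MED17, MED30 and parental MYC. Among 11 marker genes of other cell types, 10 had no peak in any list, and CDH5, an endothelial gene, had a MED30 peak of fold 3.89 and a MYC peak of fold 4.04 with doxycycline.

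Promoter sequences are shown first for the members whose RefSeq promoter window holds a canonical E-box. The table gave 15 windows for the 10 genes (GRCh38.p14), each 300 bases long, with 250 bases before a transcription start and 50 after it. CACGTG, which reads the same on both strands, stood in the windows of MXD4, MNT and MLX. The 250 bases before the start of each are printed 5′ to 3′ on the gene's strand, with the E-box in capitals. They lie at chr4:2262110-2262359 (minus strand) for MXD4, chr17:2401061-2401310 (minus strand) for MNT and chr17:42566850-42567099 (plus strand) for MLX. One more E-box, printed with its flanks from the minus strand (chr15:41621468-41621497), stood inside MGA, in the window of the divergent noncoding gene LOC105370791.
MXD4: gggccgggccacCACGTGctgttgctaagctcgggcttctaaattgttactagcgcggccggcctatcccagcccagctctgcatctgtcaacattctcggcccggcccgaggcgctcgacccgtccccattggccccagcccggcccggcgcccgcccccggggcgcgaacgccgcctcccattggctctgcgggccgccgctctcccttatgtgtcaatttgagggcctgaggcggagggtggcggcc
MNT: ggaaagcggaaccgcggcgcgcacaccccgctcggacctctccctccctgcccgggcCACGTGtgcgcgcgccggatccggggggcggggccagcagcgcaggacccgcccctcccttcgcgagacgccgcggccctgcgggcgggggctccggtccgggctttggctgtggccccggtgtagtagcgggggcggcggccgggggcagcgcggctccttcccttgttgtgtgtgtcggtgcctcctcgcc
MLX: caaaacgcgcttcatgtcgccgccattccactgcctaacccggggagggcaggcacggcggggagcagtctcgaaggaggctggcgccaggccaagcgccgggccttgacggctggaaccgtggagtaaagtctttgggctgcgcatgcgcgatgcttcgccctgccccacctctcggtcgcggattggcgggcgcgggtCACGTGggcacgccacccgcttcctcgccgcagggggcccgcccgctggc
MGA: gccagttcgggtCACGTGctggtcgcaagc

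A parental MYC peak covered each of these E-boxes, and so did a peak of MED30, while a MED17 peak covered the one in MGA and not those of MXD4, MNT and MLX. The E-box began 50 bp before the start of MLX, 193 bp before that of MNT and 238 bp before that of MXD4. None sat under a MYC summit: the distance from E-box to MYC summit was 124 bp at MLX, 172 bp at MXD4, 485 bp at MGA and 1538 bp at MNT, where the peak was 2407 bp long. Neither MYC list of the shMED30 line had a peak over any of them. In their own windows, 3 of the 10 members held CACGTG, against 10.9% of all protein-coding genes with a window. Over the whole table it stood in 13.4% of 8315 windows under a parental MYC peak and in 5.34% of 26801 windows without one. A window that holds the motif is a description and not a mapped site. The variant CACGCG stood in 1 window each of MXD3, MXI1 and MGA, and none of these 3 matches lay inside a parental MYC peak. Most MYC summits at the members lay outside the promoter windows, and the letters under those were not read. The parental summits of MLX (172 bp before its start) and of the inner MGA start (32 bp past it) lay inside a window.

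In parental cells, all 10 genes had a MYC peak, 8 had a MED17 peak and 7 had a MED30 peak. The shares over all protein-coding genes were 44.2%, 52.8% and 46.4%. Peaks of all 3 proteins were found at MAX, MXD1, MXD4, MNT, MGA and MLX, 6 of 10 genes against 35.5% of all protein-coding genes. Long genes offer more room for a peak: among the 14133 protein-coding genes between 6.10 and 149 kb, the lengths of the shortest and longest member, the shares were 49.0% for MYC, 58.8% for MED17, 51.4% for MED30 and 39.6% for all 3. That length class was added after the counts were seen. In the shMED30 line, 4 genes had a MYC peak with doxycycline and 6 without it, against 7.41% and 11.0% of all protein-coding genes.

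**Figure D1:**
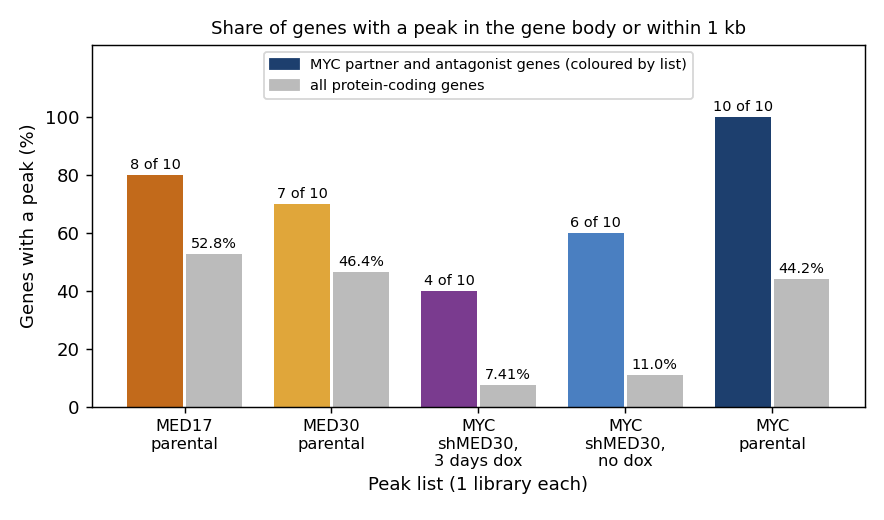
Share of genes with a peak in the gene body or within 1 kb of either end (vertical axis, percent) for the 10 MYC partner and antagonist genes (coloured bars, with the count) and for all 20037 protein-coding genes (grey bars) in each of the 5 peak lists. All 10 genes had a parental MYC peak, against 44.2% of all protein-coding genes.

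The strongest parental MYC peak per gene had a median fold of 6.92 over the 10 genes, against 4.69 over the protein-coding genes with a peak, where fold is the authors' enrichment at the summit, equal to the pileup plus 1 over the local background plus 1. The added 1 weighs most in the shallow shMED30 lists, so a fold is read within its list, by percentile, and not across the MYC lists. The corresponding medians were 4.76 against 5.21 for MED17 and 5.32 against 5.06 for MED30. Folds within a list spread widely among the members. Parental MYC folds ran between 3.37 at MLX (percentile 12.4 of its list) and 10.5 at MXD1 (97.4). MED17 folds ran between 3.55 at MLX and 6.28 at MNT, and MED30 folds between 3.93 at MXD3 and 5.79 at MAX.

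**Figure D2:**
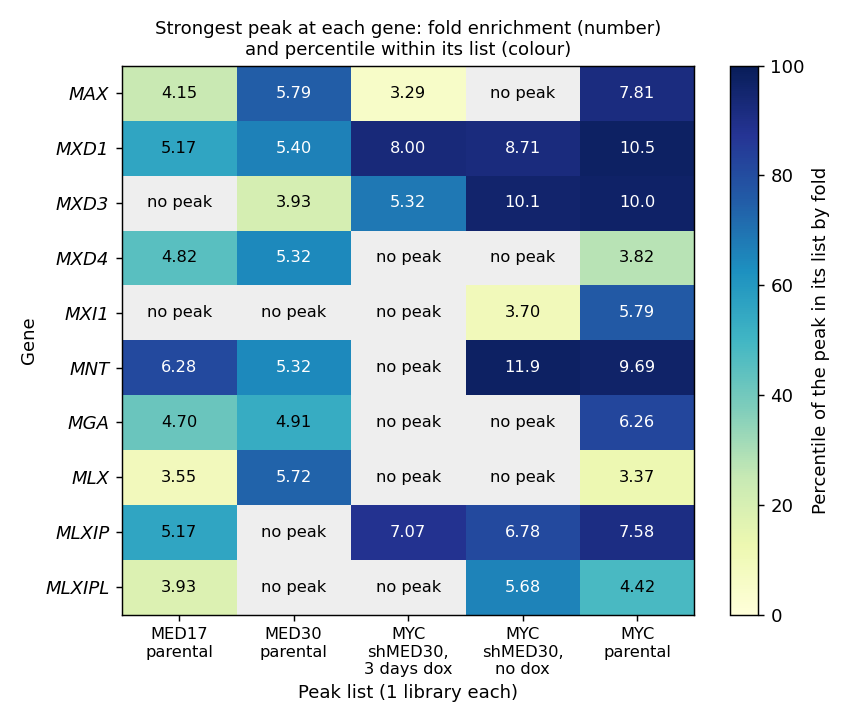
Fold enrichment of the strongest peak at each gene (number) and its percentile by fold within the list (colour, 0 to 100) for the 10 genes (rows) and the 5 peak lists (columns, 1 library each); grey cells have no peak. MXD1, MXD3, MNT, MAX and MLXIP lie above percentile 90 of the parental MYC list, and MXD1 is the gene with a peak in all 5 lists.

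MAX, the dimerization partner that MYC, the MXD proteins, MNT and MGA have in common (chromosome 14, 65006101 to 65102695, minus strand), had Mediator and MYC peaks at its start. The MED17 peak had a fold of 4.15 and the MED30 peak one of 5.79. In the shMED30 line MYC had no peak at this start, with or without doxycycline. The parental MYC peak (65102427 to 65103359) had a fold of 7.81 and stood at percentile 91.8, and its summit lay 184 bp before the upstream end of the gene and 101 bp from the MED30 summit. The doxycycline list held another MYC peak inside MAX, of fold 3.29 and 3 fragments at the summit, 46.1 kb past the nearest listed start and under the overlapping genes FNTB and CHURC1-FNTB. Its −log10 q of 1.13 is below that of any peak in the parental lists, and peaks with doxycycline and none without it were found at 3.39% of protein-coding genes.

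The parental MYC site of MAX was set beside the depth and the calls of the no-doxycycline library. It had 52 fragments at the summit (exact Poisson 95% interval 38.8 to 68.2, counting error only), which scale to 6.29 (4.70 to 8.25) at the depth of the no-doxycycline library, whose smallest summit pileup was 4. This scaling uses background alone. Over 1623 pairs called in both lists at protein-coding genes, the no-doxycycline pileup had a median of 1.92 times the scaled parental value. Only sites that the no-doxycycline list calls enter that median. The same limit holds for the scaled values at MXD4 and MGA below. Of 583 parental MYC peaks at protein-coding genes with at least the fold of the MAX site, which is the lowest of them, 465 (79.8%) overlapped a no-doxycycline peak. With the parental list cut by fold into 10 equal bins, the share was 76.2% in the highest bin, which held MAX, and 42.2% in the bin below. Why the MAX site had no such peak was not tested. The genes most like MAX in percentile over the 5 lists were NOL12, LARP4 and TIMM9, with Euclidean distances of 6.54, 6.55 and 7.16 percentile points.

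The MXD family held both strong and weak MYC sites. MXD1 (chromosome 2, 69915109 to 69942945, plus strand), a MAX partner induced during differentiation, had MYC folds of 8.0 with doxycycline, 8.71 without it and 10.5 in parental cells, at percentiles 92.8, 92.2 and 97.4. Pileup over local background, without the added 1, was 26.7, 24.4 and 11.9 in the same order of lists. Like the folds, these ratios are not compared across the MYC lists, here or at MXD3. Its MED17 and MED30 folds were 5.17 and 5.40. The MYC summits lay 835 bp upstream of the start with doxycycline, 796 bp without it and 795 bp in parental cells, and the Mediator summits lay nearer to the start, at 635 bp for MED17 and 514 bp for MED30. The protein-coding gene with the pattern nearest to MXD1 over the 5 lists was ADNP (distance 3.18 percentile points), followed by MCM7 and AP4M1 (5.51 each).

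At MXD3, whose product is an MXD protein linked to proliferating cells, MYC folds were 5.32 with doxycycline, 10.1 without it and 10.0 in parental cells, and pileup over local background was 19.0, 26 and 12.3. The gene lies on chromosome 5 (177305499 to 177312752, minus strand), and all 3 MYC summits lay inside it, 477 to 484 bp past the start and at most 7 bp apart. MED30 had a weak peak there (fold 3.93, percentile 20.6) and MED17 had none. With 5 kb beyond the gene, MXD3 also counted a MED17 peak, and its strongest MED30 peak had a fold of 5.15. By the 1 kb rule, a peak set without MED17 and with the other 4 lists was found at 24 protein-coding genes (0.120%). Peaks in all 5 lists, as at MXD1, were found at 685 (3.42%).

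MXD4 (chromosome 4, 2247432 to 2262109, minus strand) carried more Mediator than MYC signal by rank within the lists. Its strongest MED17 and MED30 peaks had folds of 4.82 and 5.32, at percentiles 44.9 and 64.4. Neither MYC list of the shMED30 line had a peak at MXD4, and the parental MYC peak, which covered the upstream E-box, had a fold of 3.82 at percentile 27.6. Its 14 summit fragments scale to 1.69 at the no-doxycycline depth, where the smallest pileup of the list was 4. With the parental list cut by fold into 10 equal bins, 28 of 895 MYC peaks at protein-coding genes in the bin of MXD4 (3.13%) overlapped a no-doxycycline peak. Peaks of MED17, MED30 and parental MYC with none in the shMED30 line, as at MXD4, MGA and MLX, were found at 4937 protein-coding genes (24.6%).

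MXI1 was the gene with MYC peaks and no Mediator peak. The gene lies on chromosome 10 (110207605 to 110287365, plus strand). The doxycycline list had no peak there, and the no-doxycycline list had 1, of fold 3.70 (percentile 9.65, 5 fragments). Parental cells had 3 MYC peaks, with folds of 5.79, 4.19 and 3.30, at 976 bp past the middle one of its 3 listed starts and at 334 and 1341 bp past the last one. The no-doxycycline peak overlapped that of fold 4.19. MYC in those 2 lists without either subunit and without a doxycycline peak was seen at 31 protein-coding genes (0.155%).

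MNT and MGA, further MAX partners, had MYC and Mediator peaks both at a start and far inside the gene. At MNT (chromosome 17, 2384073 to 2401060, minus strand) the strongest MYC site lay 7.17 kb past the start, at 2393378 to 2394235. With doxycycline MNT had no MYC peak. Without doxycycline the MYC fold at this site was 11.9, percentile 97.5 and the highest of the members with a peak in that list, and in parental cells it was 9.69, with 82 fragments and a summit 16 bp away. The MED17 and MED30 peaks that overlapped this site had folds of 6.28 and 5.32, against 5.36 and 3.60 for those over the start, and their summits lay 274 and 947 bp from the MYC summit. The MED30 summit lay 187 bp from that of a further parental MYC peak (2392530 to 2393031, fold 3.49). Nearer the start, MYC had a fold of 5.18 without doxycycline, under a broad parental MYC peak of 4.59.

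MGA (chromosome 15, 41621224 to 41769940, plus strand), which also pairs with MAX within a Polycomb-type repressor complex, had no MYC peak in the shMED30 line and parental MYC peaks at 2 of its 3 listed starts. The peak at the first start had a fold of 5.45 and overlapped peaks of MED17 (4.70) and MED30 (3.99). The peak at the inner start had a fold of 6.26, with its summit 32 bp past that start, and overlapped neither subunit. A separate MED30 peak of fold 4.91 lay 1184 bp past the inner start. These parental sites scale to 3.14 and 2.90 fragments at the no-doxycycline depth. In their bins of the parental list by fold, 23.8% and 42.2% of MYC peaks at protein-coding genes overlapped a no-doxycycline peak, and MLXIPL, which scales to 2.54, had one.

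Among the MLX group, MLXIP had the strongest MYC site. MLXIP (chromosome 12, 122078756 to 122147344, plus strand), the glucose-responsive MondoA, had MYC folds of 7.07 with doxycycline, 6.78 without it and 7.58 in parental cells, with summits 410, 338 and 345 bp before the start. Pileup over local background was 21.7, 14.3 and 8.87, an order other than that of the folds. These ratios rest on 9, 11 and 45 summit fragments, and neither order is read as a difference between the MYC lists. MED17 had a peak of fold 5.17 and MED30 had none. MLX (chromosome 17, 42567100 to 42573203, plus strand), the common partner of this group, had no MYC peak in the shMED30 line. In parental cells it had a MED30 peak of fold 5.72 (percentile 73.8), a weak MED17 peak of 3.55 (9.21) and a weak parental MYC peak of 3.37 (12.4). Its MYC and MED17 peaks did not overlap, as the MYC summit lay 172 bp before the start and the MED17 summit 211 bp past it.

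At MLXIPL, which encodes ChREBP, a regulator of lipogenic genes, MYC was found at the upstream end of the annotated gene and not at its listed start, and MED17 at both. The gene spans 73593202 to 73647907 on chromosome 7 (minus strand), and the listed start is at 73624522. With doxycycline there was no MYC peak, and MYC folds at the upstream end were 5.68 without doxycycline and 4.42 in parental cells. The MED17 peak there had a fold of 3.93, and a second MED17 peak of 3.24 lay 73 bp past the listed start. MED30 had no peak at MLXIPL.

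**Figure D3:**
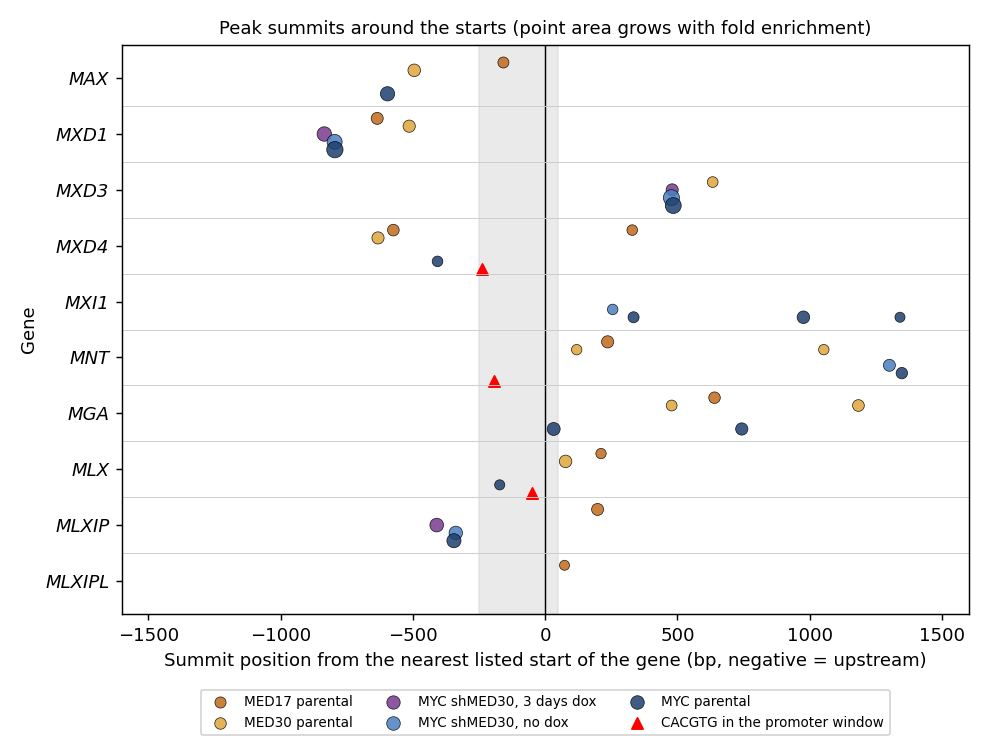
Position of each peak summit from the nearest listed start of its gene (horizontal axis, bp, negative values upstream) for the 10 genes, coloured by peak list, with point area growing with fold; the grey band is the promoter window and red triangles mark CACGTG in it. The axis ends at 1600 bp and shows 38 of 47 peaks; MYC summits of MXD1, MXD3 and MLXIP from the 3 MYC lists lie close together.

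MYC summits were closer to each other across libraries than to Mediator summits at these genes. The 3 doxycycline peaks that overlapped a parental MYC peak had summits 4 to 65 bp from it (median 40), and the 7 no-doxycycline peaks had summits 1 to 80 bp from it (median 16). Over all protein-coding genes the medians were 54 and 55 bp. Of the 15 parental MYC peaks at the 10 genes, 9 (against 72.6% of such peaks at all protein-coding genes) overlapped a MED30 peak, with summits 101 to 947 bp apart (median 249, against 160 over all protein-coding genes). As many, 9 (against 80.4%), overlapped a MED17 peak, with summits 68 to 1112 bp apart (median 274, against 233). With overlap defined as summits within 250 bp, 5 of the 15 MYC peaks matched MED30 and 4 matched MED17. The 4 MYC peaks that overlapped neither subunit were those of MXI1 and the inner MGA start.

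Induction of the hairpin was compared with no induction over the 7 no-doxycycline MYC peaks, which lay at 6 genes. MXD1, MXD3 and MLXIP had an overlapping peak with doxycycline, and MXI1, MNT and MLXIPL had none. That is 3 of 6 genes, against 32.9% of the 2213 protein-coding genes with a no-doxycycline peak. These sets are not alike in fold: the strongest no-doxycycline peak had a median percentile of 86.6 at the members and 68.3 over protein-coding genes. Stronger no-doxycycline peaks overlapped a doxycycline peak more often, as given by bins of fold below. No measurement of MED30 RNA or protein was used here, and the extent of the knockdown is therefore unknown.

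At the sites found in both lists, the summit pileups were 10 fragments with doxycycline and 12 without it at MXD1, 6 and 15 at MXD3, and 9 and 11 at MLXIP. Corrected for depth, the ratio of doxycycline to no doxycycline was 1.39 at MXD1 (95% interval 0.538 to 3.51), 0.667 at MXD3 (0.212 to 1.82) and 1.36 at MLXIP (0.500 to 3.62). The intervals cover counting error only, and each includes a ratio of no difference. The median ratio over 619 such pairs at protein-coding genes was 1.11, with quartiles of 0.834 and 1.40. Sites enter this comparison only where both lists call them.

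The intragenic MNT site was the strongest of the sites without a doxycycline peak. It had 25 fragments without doxycycline (16.2 to 36.9), which scale to 15.0 (9.70 to 22.1) at the doxycycline depth, where the smallest summit pileup of the list was 3 and the median 6. Of 38 no-doxycycline peaks at protein-coding genes with a fold at least as high, 36 (94.7%) overlapped a peak with doxycycline. The remaining sites were weaker. MNT near its start scales to 6.59 fragments (3.29 to 11.8), MLXIPL to 5.40 (2.47 to 10.2) and MXI1 to 3.00 (0.973 to 6.99). With the no-doxycycline list cut by fold into 10 equal bins, peaks at protein-coding genes in the bins of these sites overlapped a doxycycline peak in 17.3%, 26.7% and 5.00% of cases. The share was 72.8% in the highest bin, which held MXD1, MXD3 and the intragenic MNT site.

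**Figure D4:**
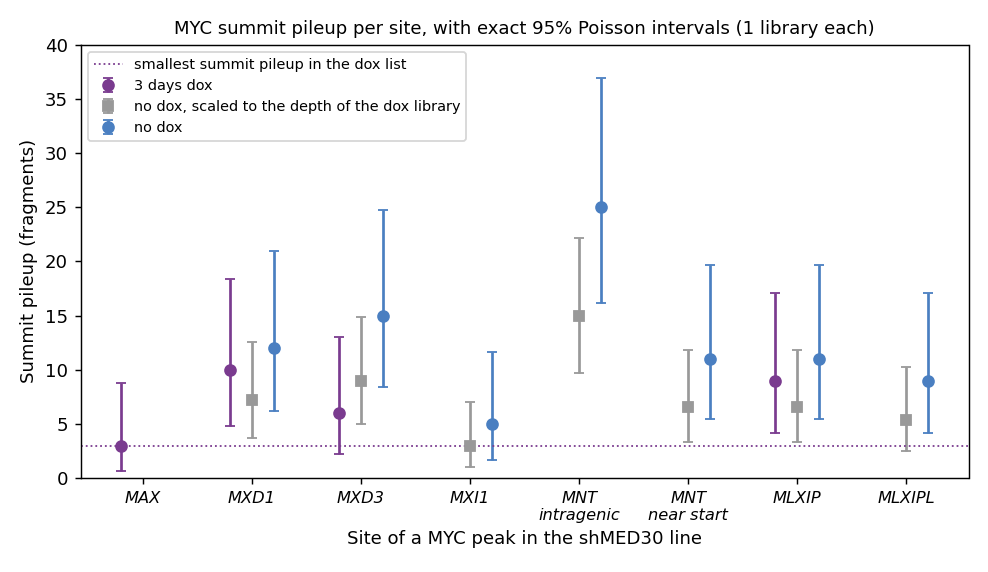
Summit pileup of MYC ChIP fragments (vertical axis) at each MYC site of the shMED30 line, after 3 days of doxycycline (purple), without doxycycline scaled to the depth of the doxycycline library (grey) and without doxycycline as recovered (blue), with exact Poisson 95% intervals and 1 library each. A missing purple point means no overlapping peak was called; the intragenic MNT site has 25 fragments without doxycycline and no peak with it.

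The shMED30 line without doxycycline was also set beside the parental cells. All 6 genes with a no-doxycycline MYC peak had it over a parental one, as did 85.6% of protein-coding genes with a no-doxycycline peak. Of the 10 genes with a parental peak, 6 had an overlapping one without doxycycline, against 21.6% of the 8847 protein-coding genes with a parental peak. The 2 sets are not alike in fold: the strongest parental peak had a median percentile of 86.4 at the members and 56.0 over protein-coding genes. Corrected for depth, the ratio of no doxycycline to parental pileup lay between 1.21 at MXD1 (95% interval 0.601 to 2.23) and 3.54 at MLXIPL (1.43 to 8.07) over the 7 sites. The median over 1623 pairs at protein-coding genes was 1.92, with quartiles of 1.5 and 2.43. A site enters only where the shallow no-doxycycline list calls it, with at least 4 fragments, so a weak parental site can enter only with a high ratio, and the order of the members in this ratio is not read further.

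Genes for proteins that work with this network were counted beside the shares over all protein-coding genes, where MED17 stood at 52.8%, MED30 at 46.4% and parental MYC at 44.2%. No test of a list was run. Of 13 MYC cofactor genes, 13 were bound by MED17, 11 by MED30 and 9 by MYC in parental cells, the strongest of MYC being at RUVBL1 (fold 8.62), an ATPase of chromatin remodelling complexes, and KAT2A (8.5), an acetyltransferase. The acetyltransferase EP300 had Mediator peaks and no MYC peak. Of 14 corepressor genes of the MXD proteins and MNT, 13, 11 and 11 had peaks of MED17, MED30 and parental MYC, led for MYC by HDAC2 (11.4) and the scaffold SIN3A (5.70). HDAC2 had no MYC peak with doxycycline and a fold of 9.75 without it, and 0 of the 4 corepressor genes with a no-doxycycline peak had an overlapping one with doxycycline, against 32.9% of protein-coding genes. RBBP7, one of these 4, had a doxycycline peak that did not overlap its no-doxycycline one (fold 5.17). Of 12 MYC turnover genes, 10 had a parental MYC peak, and USP36, a nucleolar deubiquitinase, had MYC folds of 4.36 with doxycycline, 7.06 without it and 5.78 in parental cells. The folds of HDAC2 and USP36 come from lists of unlike depth and are not compared across the MYC lists. Among 12 genes of the MGA complex, 9 had a parental MYC peak, led by HDAC2 and the histone reader WDR5 (6.62), which also belong to the other lists.

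The MYC gene itself had MED17 and MED30 peaks (3.33 and 3.99) and no MYC peak in any list. MYCL had a parental MYC peak of fold 4.61, and MYCN had no peak. The MYC partners and antagonists had a parental MYC peak at 10 of 10 genes, against 5 of 9 genes for other E-box binding factors of the same structural class. Of those, TFAP4 was the highest (6.67), TFE3 had Mediator peaks alone, and TFEC had no peak.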

How the data were processed

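Each deposited file is a peak list for 1 of 5 ChIP-seq libraries, in the narrowPeak layout. The submitters' processing notes name hg38 and the tools MACS2, Bowtie2, Trim Galore and deepTools, without versions and without saying whether an input control was used. Per peak, the authors deposited a fold (a ratio of summit pileup to local background, which the values show to hold 1 added to each), a −log10 p-value, a −log10 q-value and a score, which equals the q column times 10 without its decimals. The lists start at q = 0.05 for the 3 parental libraries and at q = 0.1 for the 2 shMED30 libraries.

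Gene spans came from RefSeq for GRCh38.p14, and strand, starts and sequences from its promoter table. A gene was called where a peak shared 1 bp with its body or 1 kb beyond either end; exons were not in the annotation. Summit pileup and local background were recovered from fold and p as the pair matching a Poisson tail within 0.002 log10 units, which succeeded for 99.5% to 99.8% of peaks per list (0.584% to 1.47% without the added 1), and the lowest background was taken as depth. Code (Python 3.11.15, scipy 1.17.1) was tested on simulated data. All 10 members were named. From each other list, up to 4 genes with the highest parental MYC fold and up to 2 without a parental MYC peak, in alphabetical order, could be named; CDH5 and RBBP7 were named after their values were seen. One gene that this rule names is not reported here. The genes most like MAX and MXD1 were the 3 with the smallest distance in percentiles. The members and lists were chosen with earlier results of these data known.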

Additional observations from a re-analysis of the deposited data

How the results depend on the processing

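With 1 library per group, leaving out a replicate was not possible. No paired analysis was possible because the groups share fewer than 2 replicate numbers. Counts were recomputed for gene boundaries alone, for 1 kb around a listed start, for 5 kb beyond the gene, for q of at most 0.01 or 0.05 and for the summit in the region, and each stayed within 1.5 times its value in the report. Gene boundaries here mean 1 kb to either side of each gene end, which keeps the flanks and drops the rest of the gene body. The parental MYC count was 9 of 10 genes with boundaries or starts alone, where MXI1 or MLXIPL no longer counted. The doxycycline count was 3 with q of at most 0.05, without MAX. Genes with a doxycycline peak over a no-doxycycline one numbered 3 under each of these. Genes with a no-doxycycline MYC peak numbered 4 instead of 6 with boundaries or starts alone, where MNT no longer counted. The comparison of induction was then 3 of 4 genes, with no share over all protein-coding genes under these rules to set beside it.

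In the upper 50% of each list by fold, 3 genes had a MED17 peak and 2 had peaks of all 3 parental proteins, and 3 and 4 parental MYC peaks overlapped MED30 and MED17. With a reciprocal overlap of at least 50% these overlaps numbered 5 and 5, and 2 genes had a no-doxycycline peak over a parental one. With summits within 250 bp, the overlaps with MED30 and MED17 were 5 and 4. For these cuts no share over all protein-coding genes is given, so the lower counts are not read as particular to the members. CACGTG or CACGCG was found in windows of 6 genes, against 26.3% of protein-coding genes, and CANNTG in those of 8, against 70.5%. The cause of these differences was not tested. The shMED30 libraries were shallower than the parental ones, so a missing peak there need not mean that MYC was absent. Whether depth accounts for any given absence was not tested. With the parental MYC list cut into 10 bins by fold, 2.61% of peaks at protein-coding genes in the lowest bin and 76.2% in the highest overlapped a no-doxycycline peak.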

Other observations

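Genes known as targets of MLX with MondoA or ChREBP were listed as well. Of 8 such genes, 6 had peaks of MED17, MED30 and parental MYC, against 35.5% of all protein-coding genes. FASN, the fatty acid synthase, had MYC folds of 6.71 with doxycycline, 8.16 without it and 7.24 in parental cells, and ACLY, which makes cytosolic acetyl-CoA, had 5.62, 7.91 and 5.59. These lists differ in depth, so the folds of FASN and ACLY are not compared across them. TXNIP, an inhibitor of glucose uptake, had a MED30 fold of 8.96 and a parental MYC fold of 6.39, with no MYC peak in the shMED30 line. ARRDC4 and G6PC1 had no peak in any list.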
